A study of Caenorhabditis elegans with 4 samples.

Results

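The subject here is chromosome IV of Caenorhabditis elegans as seen in a ChIP-seq experiment on the protein F23B12.7. Its members are the 482 regions of the combined list of called regions that lie on this chromosome, out of 2621 in all, chosen by chromosome name and by no measured value. Beside them stand the 199 chromosome IV regions of 1038 in the ChIP replicate 1 list and the 62 of 310 in the ChIP replicate 2 list. The worms were young adult hermaphrodites of strain OP429, with the genotype unc-119(ed3) III and the transgene wgIs429, which supplies F23B12.7 as a fusion with GFP and a FLAG tag, together with a rescuing copy of unc-119. The transgene came from bombardment, and all samples carried it. The study has 2 ChIP samples, precipitated with an anti-GFP antibody, and 2 input samples of total genomic DNA from the same kind of lysate. No sample from worms without the tagged protein was analysed here, so binding of the protein and antibody signal from elsewhere cannot be told apart. Positions are those of WormBase build WS180. Each region carries a q-value from the peak caller PeakSeq, which depends on both read depth and enrichment, and the number of reads behind each list is unknown.

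As background, F23B12.7 is related to human CEBPZ and to yeast Noc1 (Mak21), a protein that acts in yeast in the assembly of the large ribosomal subunit. Worm chromosomes have no single centromere, and on the autosomes the central part recombines little and holds most of the highly expressed and essential genes, while the arms recombine more and hold more repeats. Chromosome IV is also known for its broad clusters of 21U-RNA loci, the piRNA genes of this species, a large part of which lies towards its right end. Genes and sequences at the called regions were not analysed here, so the regions are described by position only.

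Called regions ran along the whole of chromosome IV, from 125934 to 17468349. The furthest called end on a chromosome stood for its length, which gave 17.47 Mb for chromosome IV and a density of 27.6 combined regions per Mb (95% exact Poisson interval 25.2 to 30.2, covering counting error only). This was rank 3 of the 6 chromosomes, below chromosome III (42.1) and II (31.6) and above V (20.9), I (20.6) and X (18.7). The neighbouring intervals of II (28.9 to 34.6) and IV overlapped, and those of V (18.95 to 22.9) and IV did not. Replicate 1 held 11.4 regions per Mb of chromosome IV and replicate 2 held 3.55. Together the combined regions covered 213015 bp, or 1.22% of the chromosome, against 1.19% of the other 5 chromosomes together.

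In the combined list, density over 10 equal bins was nearly level along most of the left part of chromosome IV. It was higher around the middle and lowest towards the right end. With the chromosome cut into 10 equal bins, numbered from the left, the combined list held 48, 50, 46, 47, 61, 54, 68, 41, 33 and 34 regions. Bins 1 to 4 thus differed from each other by at most 4 regions, while bin 7, at 38.9 regions per Mb, had 2.06 times the density of bin 9, at 18.9. In replicate 1, bin 7 held the most regions (25) and bin 9 the fewest (15), but the remaining bins held 18 to 22. Of its 199 regions, 187 overlapped a combined region, so this list is not separate evidence for the peak. In replicate 2 the fewest regions (4) lay in bin 7 and the most in bins 1 and 2 (9 each). Differences between bins were not tested. Counted in steps of 1 Mb, the most regions (41) lay from 11000001 to 12000000 and the fewest of any full step (13) from 15000001 to 16000000. At this finer scale the left part was not level, with 35 regions from 2000001 to 3000000 and 19 from 3000001 to 4000000. Over the 17 full steps the mean was 27.8 ± 7.33 regions (SD over steps, which are not replicates).

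**Figure D1:**
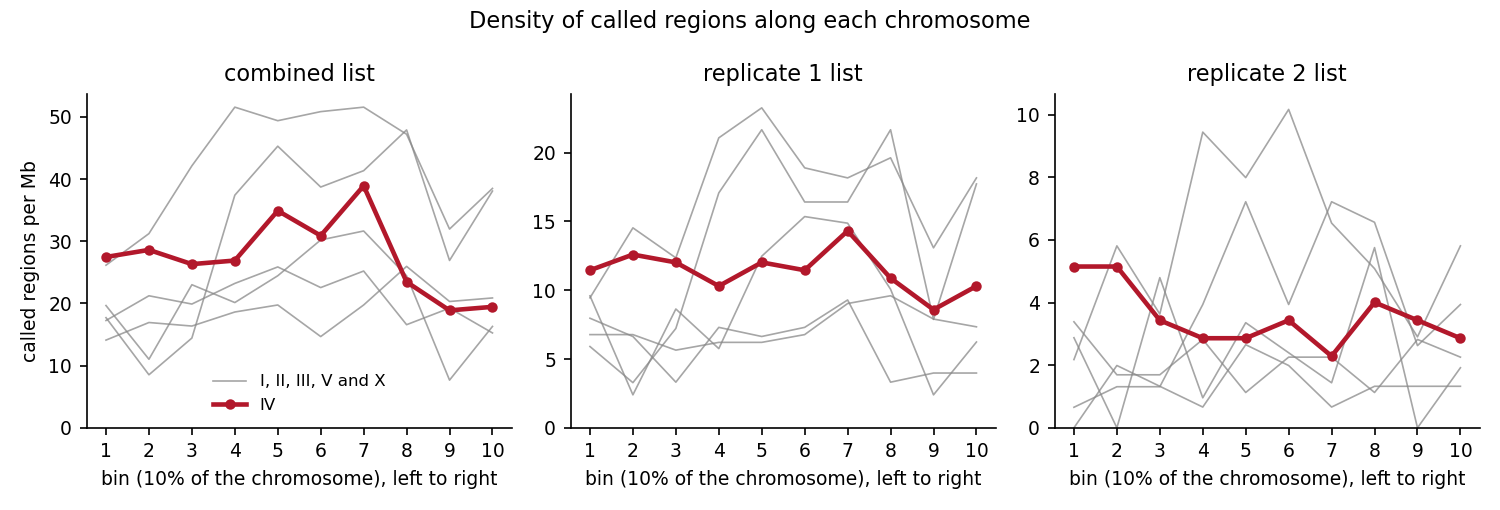
Called regions per Mb in each of 10 equal bins of a chromosome, from its left to its right end, in the combined, replicate 1 and replicate 2 lists. The red line with points is chromosome IV and each thin grey line is another chromosome. In the combined list chromosome IV runs between 26.3 and 28.6 over bins 1 to 4, peaks at 38.9 in bin 7 and ends at 19.5. In the replicate 2 list bin 7 is its lowest, at 2.29.

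The right 50% of chromosome IV, beyond 8734174, held 230 of the 482 combined regions, or 47.7% (95% Wilson interval 43.3 to 52.2%). The left 50% held the other 252. This did not differ detectably from an even split (two-sided exact binomial test, p = 0.339, adjusted p = 0.407 over 6 chromosomes). Chromosome II was the one chromosome past the test, with 61.0% of its regions on the right (exact binomial test, adjusted p = 9.47e-06). It did not pass in the replicate lists (exact binomial test, adjusted p = 0.0586 in replicate 1 and 0.405 in replicate 2). The other 5 chromosomes together had 1156 of 2139 regions on the right, or 54.04%. Chromosome IV lay 6.33 percentage points lower (95% Newcombe interval of IV minus the others, −11.2 to −1.39), and Fisher's exact test gave p = 0.0133 but an adjusted p of 0.0664 over the 5 comparisons of this kind, which misses the threshold of 0.05. Without chromosome II among the others the difference was −4.30 percentage points (Fisher's exact test, adjusted p = 0.489), a contrast added after the values were seen. These tests treat every region as independent, although neighbours may not be. Counts in full steps of 1 Mb had a variance of 1.93 times their mean on IV and 5.63 times on II. That is more than independent placement at an even rate gives, so these intervals may be too narrow and p-values too small. In replicate 1 the share was 97 of 199 (48.7%, 41.9 to 55.6%), and in replicate 2 it was 28 of 62 (45.2%, 33.4 to 57.5%).

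An even split hid a step inside the right part. With the chromosome cut into 4 equal segments, numbered from the left, the combined list held 115, 137, 145 and 85 regions, so segment 3 was the densest (33.2 per Mb) and segment 4 the sparsest (19.5 per Mb). Segment 4, from 13101262 on, took 17.6% of the regions (14.5 to 21.3%), below the 25% that its length gives. Up to 13000000 the density was 30.3 regions per Mb, and beyond it was 19.7. This stretch was singled out after the counts were seen, so no test goes with it. On the other chromosomes segment 4 took 15.9% (V), 20.6% (I), 23.3% (III), 28.9% (X) and 29.5% (II) of regions. It was the sparsest segment on V and I too, although on V segment 1 was nearly as thin (18.2%). Segment 1 of chromosome IV took 23.9% (20.3 to 27.9%), and on the other 5 together it took 18.05% (16.5 to 19.7%). Chromosome by chromosome it took 10.8% (II), 18.2% (V), 18.5% (III), 22.6% (X) and 23.5% (I), so I and X were close to IV.

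In neither replicate list was the share of segment 4 below 25% beyond counting error. Replicate 1 held 49, 53, 56 and 41 regions in the 4 segments. Its fewest were in segment 4, with 20.6% (15.6 to 26.8%), an interval that includes 25%. Replicate 2 held 20, 14, 14 and 14, so its highest count was in segment 1, with 32.3% (21.9 to 44.6%) of its 62 regions, and segment 4 took 22.6% (14.0 to 34.4%), an interval that includes 25%. Replicate 2 had no region at all from 10000001 to 11000000, where the combined list had 33 and replicate 1 had 13.

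In segments 1 and 4 of chromosome IV, the sparser ones, combined regions had somewhat lower q-values. The median −log10 q of combined regions was 6.08 in segment 1 and 6.02 in segment 4, against 5.35 and 5.37 in segments 2 and 3. On the other 5 chromosomes together the same medians ran from 5.40 to 5.49, but single ones went both ways. On V, segments 1 and 4 were also the sparser ones, with 5.015 and 5.073 against 5.647 and 5.557. On III they were too, with 5.417 and 5.771 against 5.390 and 5.525, and on I, with 5.731 and 4.848 against 5.220 and 5.297. In the replicate 1 list of chromosome IV the medians of segments 1 to 4 were 5.34, 5.33, 4.92 and 5.15, so segment 4 did not exceed segment 2. In replicate 2 they were 5.70, 5.34, 5.26 and 5.45. Steps of 1 Mb on chromosome IV showed no simple rule. The median was 6.96 from 4000001 to 5000000 (32 regions), 5.76 from 3000001 to 4000000 (19) and 6.66 from 15000001 to 16000000 (13). In segments 1 to 4, 50 of 115 (43.5%), 55 of 137 (40.1%), 53 of 145 (36.6%) and 39 of 85 (45.9%, 35.7 to 56.4%) combined regions were also called in a replicate. The Wilson intervals of the 4 segments all overlapped.

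The regions with the lowest q-values on chromosome IV were called in both replicates without exception down to rank 18 on the chromosome. The strongest lay near the left end, from 654686 to 655127, a compact region of 442 bp with q = 2.30e-36, rank 9 of the whole combined list. It was called from 654716 to 655109 in replicate 1 (q = 4.00e-20) and from 654753 to 655144 in replicate 2 (q = 3.21e-14). It was the best chromosome IV region of all 3 lists. The run to rank 18 is by combined q-value, and pooled reads, if the combined list uses them, would favour it.

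The next was also compact, from 4749867 to 4750232, 366 bp wide, with q = 3.12e-27. It was again second on the chromosome in both replicates, at q = 1.20e-18 and q = 8.77e-11. A separate combined region from 4748436 to 4749245 lay close to its left and was called in replicate 2 alone (q = 1.56e-06).

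The region at rank 3 was of another shape. It ran from 8431625 to 8433227, 1603 bp, with q = 2.34e-26. Replicate 1 called nearly the same stretch, 1577 bp wide (q = 1.91e-17), while replicate 2 called 336 bp near its right edge, from 8432783 to 8433118, at q = 4.48e-06. Its rank was therefore 18 in replicate 1 and 165 in replicate 2. The region from 4469838 to 4471818, 1981 bp wide with q = 6.74e-18, was alike in this, with 1730 bp called in replicate 1 (q = 2.10e-11) and 466 bp in replicate 2 (q = 2.06e-05).

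The regions at ranks 4 and 5 were neighbours near the right end of the chromosome. The region from 17279268 to 17281571, with q = 1.33e-21, was 2304 bp wide and the only one on chromosome IV wider than 2000 bp. The region from 17277924 to 17278987, 1064 bp wide, had q = 2.63e-19. Both replicates called both of them separately. Replicate 1 gave the wider one the lower q-value (3.34e-18 against 9.36e-14), and replicate 2 gave it the higher one (3.21e-09 against 5.86e-10). This pair stood within the sparse segment 4, and the gap that followed it, 186279 bp long, held 1 replicate region and no combined region.

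The remaining 5 of the 10 lowest q-values lay at 2388783 to 2389330 (q = 7.02e-19), 9511153 to 9512010 (q = 3.63e-18), 4469838 to 4471818 (above), 2408364 to 2408811 (q = 1.05e-17) and 9444183 to 9444829 (q = 5.58e-17). Of these 10 regions, 3 lay in segment 1, 3 in segment 2, 2 in segment 3 and 2 in segment 4. Among the 5 best regions of replicate 2 was 1 that is not among the 10, from 1659097 to 1659424 (q = 1.16e-09), which ranked 11 on the chromosome in the combined list. The 5 best regions of replicate 1 were the first 5 of the combined list in another order.

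In the combined list, chromosome IV had a smaller share of the best 50 and best 100 q-values than of all regions. Its typical region was not weak. It held 18.4% of all combined regions but 5 of the best 50 and 12 of the best 100. In replicate 1 it held 19.2% of regions and 15 of the best 100, and in replicate 2 it held 20.0% of regions and 19 of the best 100. Its median −log10 q in the combined list was 5.60 (interquartile range 4.54 to 8.16), and the medians of the other chromosomes ran from 5.33 (I) to 5.55 (III). Of its combined regions, 28.4% lay in the quartile of lowest q-values over all chromosomes, against 24.2% of those elsewhere. The lean thus depended on how many regions were counted as best. The counts of best regions are small, and these are descriptions without a test or interval.

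Replicate support on chromosome IV did not differ detectably from that elsewhere. At least 1 replicate list overlapped 197 of the 482 combined regions by 1 bp or more, or 40.9% (36.6 to 45.3%), and the percentage called over all combined regions was 40.3. The difference from the other 5 chromosomes (40.2%) was 0.71 percentage points, with a 95% interval from −4.07 to 5.61 (Fisher's exact test, p = 0.797, adjusted p = 0.996). Replicate 1 overlapped 186 regions (38.6%, against a background of 38.2) and replicate 2 overlapped 62 (12.9%, against 11.6). Both replicates called 51 regions, or 10.6% (8.14 to 13.7%), where the percentage over all combined regions was 9.46. This exceeded the other 5 chromosomes by 1.37 percentage points (interval −1.40 to 4.65, Fisher's exact test, adjusted p = 0.861). Replicate 1 alone called 135, replicate 2 alone 11, and neither replicate 285 (59.1%).

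Within chromosome IV no difference in support was detected between the left and the right 50%. At least 1 replicate called 105 of 252 regions on the left (41.7%, 35.8 to 47.8%) and 92 of 230 on the right (40.00%, 33.9 to 46.5%). The difference of right minus left was −1.67 percentage points, with an interval from −10.4 to 7.08 (Fisher's exact test, adjusted p = 0.996). With all lists ended at the highest q of replicate 2 it was −7.02 points (39.4% against 46.5%, Fisher's exact test, adjusted p = 0.444). Regions called in both replicates numbered 27 on the left and 24 on the right.

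Support followed the q-value of the combined region on chromosome IV as elsewhere. With all 2621 regions divided into quartiles of q, the quartile with the lowest q-values held 137 chromosome IV regions, of which 120 (87.6%, 81.0 to 92.1%) were called in a replicate. In the next quartiles the counts were 50 of 112 (44.6%), 23 of 125 (18.4%) and 4 of 108 (3.70%, 1.45 to 9.14%). The other 5 chromosomes gave 88.8%, 48.05%, 17.8% and 8.20% (6.18 to 10.8%). Intervals overlapped in every quartile. If each quartile on chromosome IV had the support seen on the other 5, 42.9% of its regions would have been called in a replicate, against the 40.9% observed. Of the 51 regions called in both replicates, 50 came from the quartile with the lowest q-values. How the combined list was made is not stated, and if it pools the reads of both replicates, a fall with q is built in.

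**Figure D2:**
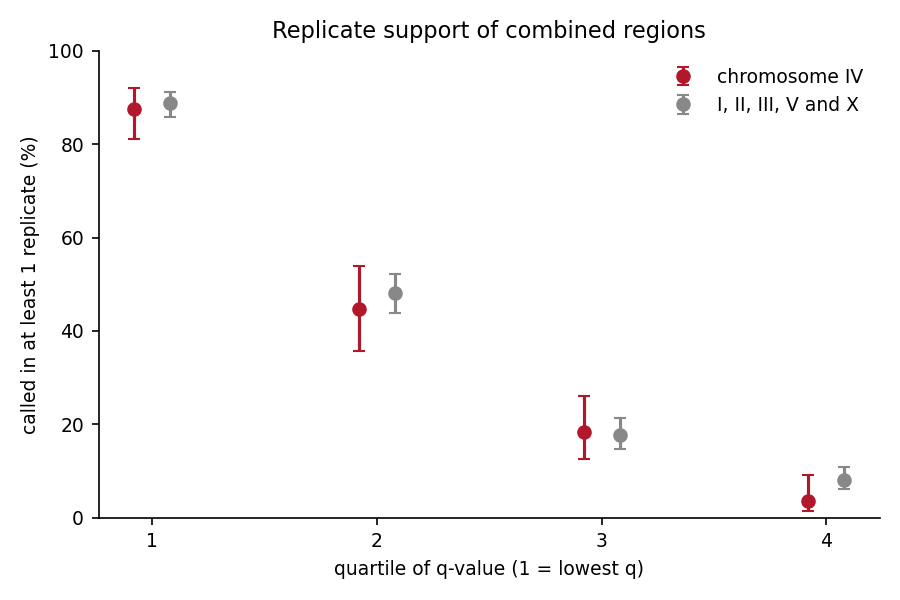
Share of combined regions overlapped by at least 1 replicate list, by quartile of the q-value over all chromosomes, for chromosome IV (red) and the other 5 chromosomes together (grey). Bars are 95% Wilson intervals, which overlap in every quartile, from 87.6% against 88.8% in the quartile with the lowest q to 3.70% against 8.20% in the last.

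The 47 combined regions with the lowest q-values on the chromosome were all called in at least 1 replicate. The strongest ones without a replicate counterpart were those from 7039471 to 7040029 (q = 1.89e-11, rank 48 on the chromosome), from 11082679 to 11083864 (q = 1.62e-10) and from 2494737 to 2495628 (q = 7.15e-10). They were 559, 1186 and 892 bp wide, all wider than the median of the chromosome. The run of 47 would likewise be favoured if the combined list pools the reads of both replicates.

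Seen from the replicate lists, all 62 replicate 2 regions of chromosome IV overlapped a combined region, and 51 of them (82.3%, 71.0 to 89.8%, against a background of 81.3) overlapped replicate 1. The other 5 chromosomes gave 81.05% (difference 1.21 percentage points, interval −10.9 to 10.4, Fisher's exact test, adjusted p = 1). In the other direction 52 of 199 replicate 1 regions (26.1%, 20.5 to 32.7%, against 24.3) overlapped replicate 2. A single combined region, from 11821779 to 11822752, was called as 2 regions in replicate 1, and no replicate region spanned 2 combined ones.

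The combined list missed more of the replicate 1 regions here than on most chromosomes. Of the 199, 187 overlapped a combined region (94.0%, 89.8 to 96.5%), where the percentage over all replicate 1 regions was 96.8. The 12 that did not made up 6.03% (3.48 to 10.2%) of the chromosome IV list and were 12 of 33 such regions in the series. The other chromosomes lost 0 of 90 (I, which allows a share of up to 3.33%), 5 of 206 (II), 4 of 232 (III), 10 of 183 (V) and 2 of 128 (X). The contrast was noticed in the data and was not tested.

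Of these 12 regions, 8 lay in the right 50% of the chromosome and none was called in replicate 2. All lay in the weaker part of the replicate 1 list, with the best at rank 529 of 1038. That best one ran from 16491400 to 16491935 (q = 7.04e-06) and lay 319 bp from the nearest combined region. The others were those from 427451 to 427828 (q = 9.76e-05), 2998771 to 2999324 (q = 3.08e-05), 6914043 to 6914379 (q = 3.51e-05), 8226112 to 8226552 (q = 7.10e-05) and 9386105 to 9386342 (q = 9.76e-05). Further right lay those from 10926375 to 10926776 (q = 3.08e-05), 11027110 to 11027926 (q = 5.13e-05), 11119093 to 11119565 (q = 7.61e-05), 14032892 to 14033930 (q = 9.47e-05), 16260377 to 16260544 (q = 6.06e-05) and 17380161 to 17380375 (q = 5.65e-05). Their distance to the nearest combined region had a median of 13236 bp and reached 87476 bp.

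Over the 51 pairs of overlapping replicate regions on chromosome IV, replicate 1 had the lower q-value in 36 (70.6%), with a median −log10 q of 6.74 against 5.62 in replicate 2. On the other 5 chromosomes it did so in 152 of 200 (76.0%). Spearman's rho of −log10 q between the replicates was 0.37 over the 51 pairs and 0.52 over the 200, given as a description, since both lists end at a limit in q and neighbouring regions share reads. The largest excess of replicate 2 over replicate 1 was 2.03 on the −log10 scale, at 7316513 to 7316960, with q = 1.81e-07 in replicate 2 and q = 1.92e-05 in replicate 1.

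**Figure D3:**
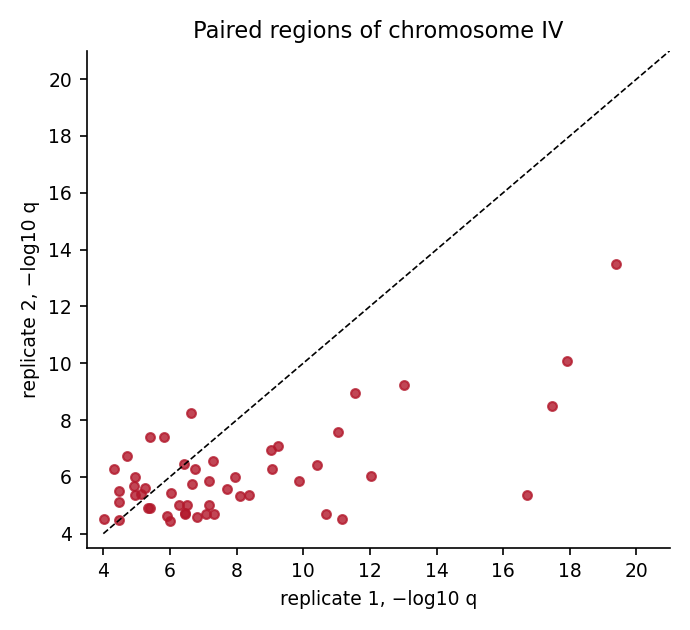
−log10 q in replicate 1 (x axis) against replicate 2 (y axis) for the 51 pairs of overlapping replicate regions on chromosome IV, 1 point per pair, with a dashed line of equal values. Of the 51 points, 36 lie below the line, and the highest in both replicates is the region at the left end of the chromosome, at 19.4 and 13.5.

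Paired regions were placed closely. Midpoints differed by a median of 43.5 bp, and 37 of 51 pairs (72.5%) lay within 100 bp, against 77.0% on the other 5 chromosomes. Which replicate gave the wider region was close to an even split on chromosome IV and leaned to replicate 1 elsewhere. On chromosome IV the replicate 2 region was the wider one in 28 pairs and the replicate 1 region in 23, with a median difference of replicate 2 minus replicate 1 of 16.0 bp. On the other 5 chromosomes replicate 2 was wider in 83 pairs and replicate 1 in 115, with a median difference of −25 bp. This contrast in sign was not tested. The most unlike pairs of chromosome IV were the broad regions at 4470071 to 4471800 and 8431620 to 8433196 of replicate 1, which were 1264 and 1241 bp wider than their partners.

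The width of chromosome IV regions lay within the range of the other chromosomes. The median in the combined list was 372 bp (95% order-statistic interval 357 to 391 bp), with an interquartile range from 282 to 514 bp and extremes of 84 and 2304 bp. The other 5 chromosomes together had a median of 369 bp. Chromosome by chromosome, the median was 350 bp on II and III, 374 bp on V, 380 bp on I and 422.5 bp on X, and the X interval (397 to 461 bp) lay above that of IV. The replicate lists had medians of 371 and 390 bp on chromosome IV.

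**Figure D4:**
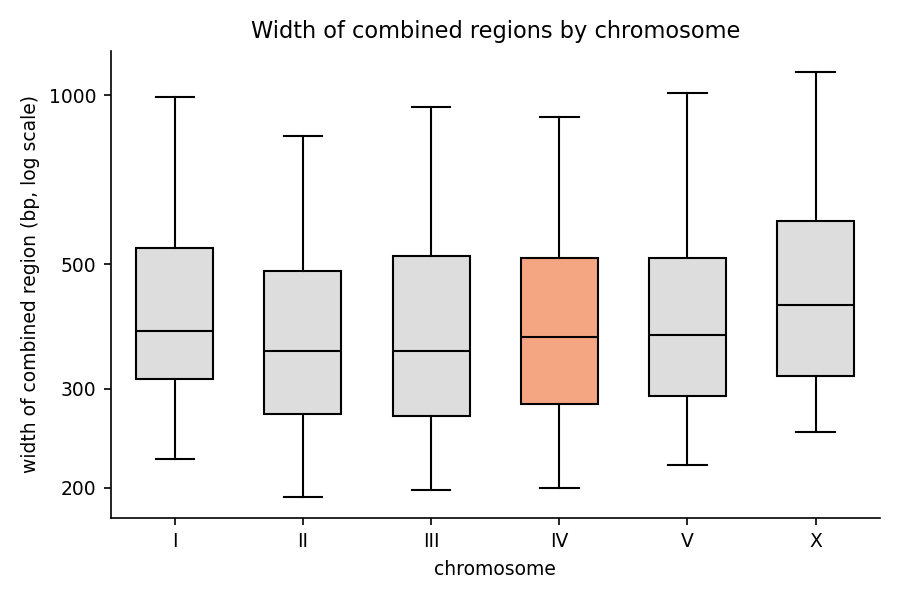
Width in bp (log scale) of the combined regions of each chromosome. Boxes run from the lower to the upper quartile with the median as a line, and whiskers reach the 5th and 95th percentiles. Chromosome IV (shaded orange) has a median of 372 bp and lies between III at 350 bp and X at 422.5 bp.

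Of the 482 chromosome IV regions, 18 (3.73%, 2.4 to 5.8%) were wider than 1000 bp and 1 was wider than 2000 bp. Elsewhere these numbered 103 of 2139 (4.81%) and 17. The interval of IV includes the share elsewhere, and II (4.15%) and III (4.32%) were close to IV. The 3 widest on chromosome IV were those of 2304, 1981 and 1603 bp described above. The 3 narrowest were from 2090812 to 2090895 (84 bp), from 4728009 to 4728118 (110 bp) and from 14469044 to 14469172 (129 bp). None of these 3 was called in a replicate, with q = 2.01e-04, 1.37e-04 and 2.46e-05.

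The share called in a replicate was higher in each wider class. Of the 26 chromosome IV regions up to 200 bp wide, 0 were called in a replicate, which allows a share of up to 11.5%, where 4 of 93 were on the other 5 chromosomes. From there the share went from 30 of 120 (200 to 300 bp) through 38.6% (300 to 400 bp), 53.2% (400 to 600 bp) and 58.5% (600 to 1000 bp) to 72.2% (over 1000 bp, 13 of 18). Wider regions also had lower q-values, with a Spearman's rho of 0.52 between width and −log10 q across the 482 regions, and 0.32 and 0.15 in the replicate 1 and replicate 2 lists of the chromosome. These are correlations across regions of 1 list, which are not replicates.

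Spacing on chromosome IV was uneven in the way of the other chromosomes. The gap from the end of one combined region to the start of the next had a median of 19418 bp (95% order-statistic interval 16054 to 23030 bp) and an interquartile range from 4805 to 50412 bp, against a median of 19400 bp on the other 5 chromosomes together. Single chromosomes ranged from 13337 bp (III) to 34820 bp (X). The coefficient of variation of the gaps was 1.24 on chromosome IV, between 1.09 (X) and 1.54 (II). Gaps would have a coefficient near 1 if regions were placed independently at an even rate. No gap in the combined list was shorter than 201 bp, nor under 204 and 207 bp in the replicate lists, so closer calls do not occur in these lists.

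**Figure D5:**
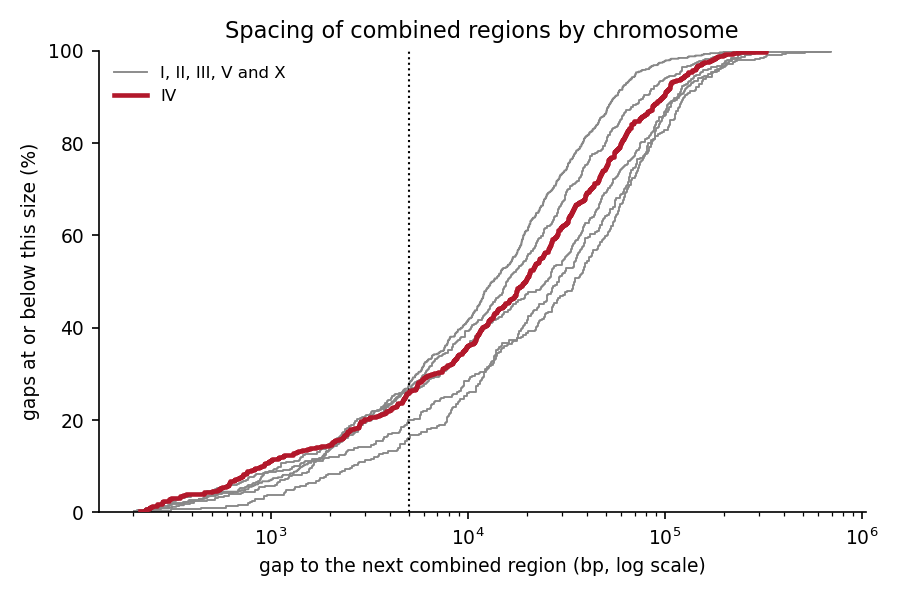
Cumulative share of gaps between neighbouring combined regions up to a given size in bp (log scale), for chromosome IV (red) and each other chromosome (grey). The dotted line marks 5000 bp, the largest gap within a cluster, and 26.2% of chromosome IV gaps lie at or below it.

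Very short gaps made up a larger share of the gaps on chromosome IV than on any other chromosome. Of its 481 gaps, 54 were at most 1000 bp (11.2%, 8.71 to 14.4%), against 153 of 2134 (7.17%, 6.15 to 8.34%) on the other 5 chromosomes. Single chromosomes ran from 3.87% (I) to 8.99% (V, 6.64 to 12.05%), whose interval overlaps that of IV. Between 1000 and 5000 bp the order turned, with 72 gaps (15.0%) against 17.01%, so that up to 5000 bp together the shares were 26.2% (22.5 to 30.3%) and 24.2% (22.4 to 26.04%). The 1000 bp class was looked at after the data were seen and was not tested.

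Long gaps gathered at the right end. The longest lay from 13453818 to 13777471 (323654 bp), followed by 15933444 to 16167607 (234164 bp) and 16865829 to 17087386 (221558 bp). These 3 all lay beyond 13101262, in segment 4, and held no region of either replicate. Of the 43 gaps longer than 100000 bp, segments 1 to 4 held 12, 8, 7 and 16. In the replicate 1 list the median gap on the chromosome was 52048 bp and in replicate 2 it was 244118 bp, as fewer regions give wider gaps.

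Clusters, taken as 3 or more regions with no gap over 5000 bp between neighbours, held 76 of the 482 regions of chromosome IV in 22 clusters (15.8%, 12.8 to 19.3%). The percentage over all combined regions was 17.1, and single chromosomes ran from 8.36% (I) to 22.3% (III and V). No test was run on this share. Of the 22 clusters 15 had 3 regions, 4 had 4 and 3 had 5, and none had more, while the largest on chromosome II had 11. They spanned 2687 to 12246 bp, with a median of 6202 bp. There were 14 clusters in the left 50% and 8 in the right 50%, with 6, 8, 5 and 3 in segments 1 to 4.

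The 3 clusters of 5 regions differed in compactness. The tightest ran from 10933084 to 10937236, where regions of 326 to 736 bp covered 65.8% of 4153 bp. Its best q-value was 1.12e-09, at 10935057 to 10935657, and that region was not called in a replicate. Replicate 1 called 3 of the other members and replicate 2 called none. The cluster from 11142985 to 11151021 covered 22.5% of 8037 bp, with q-values from 4.09e-07 to 7.08e-05 and 1 member called in replicate 1. The cluster from 2658685 to 2670930 covered 19.2% of 12246 bp, with q-values from 9.78e-10 to 1.62e-04 and 2 members called in replicate 1.

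Most clusters held both regions called in a replicate and regions called in none. Of the 22, 20 held at least 1 region called in a replicate, 6 held 1 or more called in both, and in 2 every member was called in a replicate. Over all combined regions, 40.3% were called in at least 1 replicate. The same counts were not made for clusters on other chromosomes, so they describe these 22 only. The cluster of 4 from 7958232 to 7962192, with q-values from 1.13e-07 to 2.18e-05, had no replicate region. Regions in clusters were wider than the others (median 462 against 366.5 bp), had a median −log10 q of 6.03 against 5.58, and were called in a replicate in 40 of 76 cases (52.6%, 41.5 to 63.5%) against 157 of 406 (38.7%, 34.1 to 43.5%). On the other 5 chromosomes these shares were 44.7% and 39.2%. The contrast was smaller for regions called in both replicates, with 9 of 76 (11.8%) in clusters of chromosome IV and 42 of 406 (10.3%) outside them. Width and q-value moved with membership in a cluster, and their part in its support was not tested.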

How the data were processed

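The authors used PeakSeq to call regions, per the files' source column, and deposited 3 lists, 1 for each of the 2 ChIP samples and 1 combined list, on build WS180 per the file headers. The only measurement is a q-value per region, deposited by the authors, used here as −log10 q for display. No source used here gives the aligner, the caller's version, its limits, the input behind each list or the way of combining. Sequencing depth is unknown, and input samples have no list here. The labels do not tie replicate numbers to separate cultures, so differences between replicates may be technical.

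Lists were read with Python 3.11.15 and pandas 2.3.3, and tested with scipy 1.17.1. A region belongs to the part of the chromosome that holds its midpoint. An overlap of 1 bp or more made regions of 2 lists shared. Replicate regions were paired 1 to 1 by largest overlap. Shares of regions on chromosome IV and elsewhere were compared by two-sided Fisher's exact tests, with Benjamini-Hochberg adjustment over 5 comparisons, and the left and right 50% by exact binomial tests over 6 chromosomes. Intervals are 95% Wilson, Newcombe (differences), exact Poisson or order-statistic intervals and cover counting error only. Functions were tested on simulated data. Chromosome IV, its right part and the tests were chosen with earlier results of these data known. Segments, bins, classes of gap and width and the replicate 1 regions outside the combined list were added after the values were seen. The regions named are the 10 with the lowest q in the combined list, the 5 lowest in each replicate list, the 3 widest and 3 narrowest, the 3 largest clusters, the 3 longest gaps, the 3 lowest-q regions with no replicate region, all replicate regions outside the combined list, and the fullest and emptiest steps of 1 Mb. Others were picked after their values were seen. Coordinates of the gene table at hand belong to another build, so genes were not assigned and no sequence is shown.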

Additional observations from a re-analysis of the deposited data

How the results depend on the processing

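Of 40 alternatives, 35 planned and 5 added after the data were seen, 26 concern a test, and none of those passed an adjusted p of 0.05 (lowest 0.0789), as the main tests did not, so they say little about stability. A single one changed direction. With midpoints within 100 bp, the share of replicate 2 regions matched in replicate 1 was 59.7% on chromosome IV and 62.1% elsewhere, a difference of −2.42 points in place of 1.21. The right-hand share of chromosome IV ranged from 45.2 to 48.7% over its 5 alternatives. Leaving out a replicate list, chromosome IV differed from the other chromosomes in support by 0.53 points (without replicate 2) to 1.55 points (without replicate 1), and right from left by −1.32 to −0.63 points. Over the other alternatives the difference of right minus left moved most, from −1.67 to −7.02 points (Fisher's exact test, adjusted p = 0.444), when all lists ended at the highest q of replicate 2, and was −2.95 points with midpoints within 100 bp.

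Of the 14 alternatives to values without a test, 6 stayed within the counting interval. The share in clusters was 5.81% with gaps up to 2000 bp, 30.7% with gaps up to 10000 bp and 4.52% in the replicate 1 list, since it follows the gap allowed and the number of regions. With q at or below 1e-05, which drops weak regions, the median width was 418.5 bp, the median gap 31197 bp and the density 17.6 per Mb. Joining regions within 5000 bp, into 356 loci, gave a median gap of 32038 bp. The share in segment 4 (the rightmost 25% of the length) was 22.6% in the replicate 2 list. No paired analysis was possible because the inputs have no list and a ChIP sample gives only 1 list. Without read counts, the part of depth in the unlike lengths of the lists cannot be measured.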
